A study of Mus musculus with 60 samples.

Results

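Transfer RNAs (tRNAs) carry amino acids to the ribosome and read the codons of messenger RNA through their anticodon. Ftsj1 encodes an X-linked methyltransferase that adds methyl groups to the ribose of nucleotides in the anticodon loop of some tRNAs, with Thada and Wdr6 as its partner proteins. RNA polymerase III transcribes tRNA genes, which exist in many near-identical copies, and their transcripts are trimmed at both ends, in some cases spliced, exported from the nucleus and cut into fragments by nucleases such as angiogenin. The features described here are the tRNA identifiers of moderate level: those with a mean normalised count of at least 10 in each of 5 organs and under 1000 in at least 1 organ. The mean was taken by the authors over the 6 libraries of an organ. It chose the members, so their levels are a description and were not tested, while the genotype differences played no part in the rule. Identifiers with the same mean in all 5 organs were taken once, which left 399 members. They stand for 464 identifiers, or 8.38% of the 5537 identifiers in each table, and for 399 of 4634 distinct features.

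The study took 5 whole organs (brain, heart, kidney, liver, spleen) from male mice aged 4 months, 3 of them Ftsj1-deficient and 3 wildtype, with no treatment in either group. Of the 6 mice, 2 were brothers and the other 4 were brothers of each other, and both sets held both genotypes. tRNAs were measured in 30 rRNA-depleted total RNA libraries, 1 per organ and mouse, and a poly-A library was made from each organ of each mouse as well. Whether the 30 libraries count methylated and unmethylated tRNAs equally was not tested, so a tRNA level here is a level of counts. The sources used here give neither the strain nor the altered part of Ftsj1. The question in the study's title is how loss of Ftsj1 bears on non-coding RNAs of mouse organs, and each fold change compares 3 Ftsj1-deficient with 3 wildtype mice in 1 organ, with values below 0 where the deficient mice were lower. In whole organs, fewer cells of a type and less RNA per cell cannot be told apart.

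The authors' deposited tables give, per organ and feature, a mean level, a log2 fold change with its standard error (SE), and a p-value. They hold no value per library, so single mice cannot be shown and depth per library is unknown. Ftsj1 messenger RNA was at 8.79% to 15.4% of the wildtype level in the 5 poly-A tables, which fixes the sign of the fold changes there. The tRNA tables name no contrast and hold no Ftsj1, so their sign was taken to be the same, and every direction given for a tRNA rests on that. Of 25 organ markers, 23 were highest in the organ they mark, and the heart marker Actc1 and the spleen marker Ms4a1 were listed at 0 in every organ. Summed over all identifiers, the tRNA tables held mean levels of 1305260 (spleen) to 21931500 (heart) normalised counts. Each table was normalised on its own, so a level is listed per organ as the tables give it, and organs are compared only by rank, by share of an organ's summed level, or relative to the organ's median member. That last scale was chosen after the data were seen.

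The files carry RNAcentral identifiers and pair none of them with a gene name, an amino acid, an anticodon or a sequence. No sequence is therefore printed, and a member is identified by its identifier or by its level. Many identifiers have the same values: 365 members stand for 1 identifier each and 34 for 2 to 6 identifiers with the same level in all 5 tables. Other members have nearly the same values without being identical. When members whose levels lay within 15% of each other in every organ were joined, a choice made after the data were seen, the 399 members formed 352 sets, of which 316 held 1 member and the largest held 5. The sources used here do not say how counting divided reads among near-identical tRNAs, so members of 1 set may not be independent measurements, and their single values are uncertain. Shared reads were not measured.

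Members at the edges of the rule show what it takes in. The 2 nearest inside the lower threshold had levels of 10.03 and 10.06 in liver, and the 2 nearest outside had levels of 9.96 in kidney and 9.94 in heart, in the authors' deposited tables. At the upper threshold, the 2 nearest inside had levels of 988 and 982 in liver, while the 2 nearest outside had their lowest levels, 1087 and 1237, in spleen. The median member level, to which members are set in relation below, was 79.7 normalised counts in brain, 93.1 in spleen, 60.1 in heart, 68.1 in kidney and 30.0 in liver, each on its own table's scale.

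The members were a small part of the tRNA signal in heart and a larger part in spleen. With identical rows taken once, they held 2.82% of the summed level in heart, 4.09% in kidney, 4.59% in liver, 12.7% in brain and 15.1% in spleen. The 43 abundant features, those at 1000 or more in every organ, held 96.9% in heart, 95.2% in kidney, 94.96% in liver, 85.2% in brain and 78.9% in spleen. Within the members, few features held much of the signal. The 10 highest members made up 26.5% of the members' sum in spleen, 34.1% in kidney, 41.9% in liver, 47.7% in brain and 50.9% in heart.

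Most members kept a similar place among the others from organ to organ. Spearman's rho between the levels of 2 organs, across the 399 members, ran from 0.64 for liver and spleen to 0.86 for brain and heart. These correlations are across features of the same libraries, and carry no test. On the scale of the median member, the highest organ of a member exceeded its lowest by a median of 2.82 times. This ratio was under 2 for 109 members and over 10 for 51 members.

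**Figure D1:**
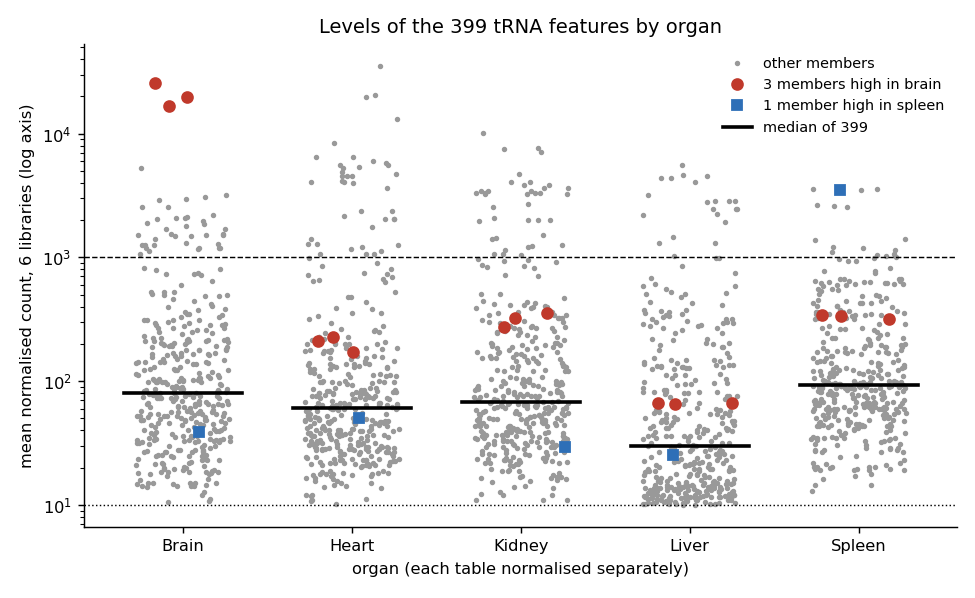
Mean normalised count (log axis) of each of the 399 tRNA features in each organ, one point per feature, with the median as a bar and the thresholds of 10 and 1000 as lines. Red circles mark 3 features at 16832 to 25438 in brain and at 65.4 to 358 elsewhere, and the blue square marks the feature at 3491 in spleen that was at 25.5 to 50.5 elsewhere.

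A few members stood far apart in 1 organ. Relative to the median member, 3 members were at least 10 times as high in brain as in every other organ. The first of them, URS0000478209_10090, was the highest of all members in brain, at 25438 normalised counts or 319 times the median member. It was at 358 in kidney, 343 in spleen, 228 in heart and 65.9 in liver, where it ranked between 65 and 131 among the members. The other two were at 19735 and 16832 in brain and also at 65.4 to 337 elsewhere, so that these 3 took ranks 1 to 3 in brain. In spleen 1 member passed the same 10 times mark. URS0001BBE3D7_10090 was at 3491 there, 37.5 times the median member, against 50.5 in heart, 39.0 in brain, 29.5 in kidney and 25.5 in liver. No member passed it in heart, kidney or liver. At a lower mark of 2 times every other organ, 32 members were high in liver, 12 each in brain and heart, 7 in spleen and 5 in kidney. The floor of 10 that chose the members lay closest to the median member in liver, where that median was 30.0. How far the rule shaped these counts was not tested.

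The members that were high in brain or spleen were not called different between the genotypes there. In brain, the log2 fold changes of the 3 leading members were 0.38 ± 0.53, 0.37 ± 0.53 and 0.39 ± 0.54 (± SE), with an adjusted p of 0.997 for each in the authors' deposited table. Their SEs were wide for their level, since the median SE of the 75 members at 300 or more in brain was 0.19. In spleen, URS0001BBE3D7_10090 had a log2 fold change of -0.09 ± 0.16 with an adjusted p of 0.999.

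The comparison of the genotypes was taken organ by organ. A member counts as called, and as risen or fallen, where the authors' DESeq2 adjusted p was under 0.05. The authors' test called 0 of 399 members in brain, kidney and spleen, 2 in heart and 7 in liver, and all 9 of these fell in the Ftsj1-deficient mice. The background, the share of all features with an adjusted p that were called, was 0% in brain, kidney and spleen, 1.28% in heart and 4.74% in liver. Members were 322 of the 470 features with an adjusted p in heart and 269 of the 359 in liver, so the background includes them. In heart 2 of the 6 called features were members, and in liver 7 of the 17. The other 4 in heart and 10 in liver lay outside the members. With both directions counted, members were thus called at a lower rate than the background in both organs, a difference that was not tested. In liver the lower calls alone were 7 of 269 members, beside 9 of all 359 features. The 8 higher calls in liver all lay outside the members. By direction, 2.51% of all liver features were called lower and 2.23% higher, and in heart 1.28% were called lower. In heart 77 members and in liver 130 members have no adjusted p, because the authors' tables leave it empty under a level of 27.6 in heart and 16.9 in liver.

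Where nothing was called, the smallest adjusted p among the members was 0.997 in brain, 0.997 in kidney and 0.999 in spleen by the authors' DESeq2 test. At an unadjusted p under 0.05 there were 13 members in brain (1 higher, 12 lower), 5 in kidney (4 higher, 1 lower) and 4 in spleen (3 higher, 1 lower). These are 3.26%, 1.25% and 1.00% of the members, beside 2.09%, 1.55% and 1.02% of all features tested. By direction, the background was 0.849% higher and 1.24% lower in brain, 0.762% and 0.788% in kidney, and 0.508% each way in spleen. The same count was 20 in heart (6 higher, 14 lower) and 27 in liver (7 higher, 20 lower), or 5.01% and 6.77% of the members beside 2.75% and 2.5% of all features. There the background by direction was 1.27% higher and 1.48% lower in heart and 1.03% and 1.47% in liver. Among features at a level of 10 or more, the background was 8.88% in liver, 4.54% in heart, 3.41% in brain, 1.6% in kidney and 1.08% in spleen. That background includes the 399 members, so some nearness to it is built in. In liver the members were 399 of its 552 features and 27 of the 49 with an unadjusted p under 0.05. Their liver share of 6.77% lay below it, and the shares in the other organs differed from it less.

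The centre of the members hardly moved with genotype. Their median log2 fold change was 0.07 in heart, 0.03 in spleen, 0.02 in liver, 0.01 in kidney and -0.02 in brain. The kidney and liver medians took the other sign under some alternatives, such as centring (-0.01 in both). Over all features at 10 or more the medians were 0.06 in heart, -0.01 in spleen, 0.03 in liver, 0.02 in kidney and 0.01 in brain. Higher values in Ftsj1-deficient mice were found for between 187 members (brain) and 226 members (heart) of the 399.

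The spread about that centre differed more than the centre did. A log2 fold change beyond 1 in either direction, which is a 2-fold difference, was found for 43 members in liver (16 higher, 27 lower), 18 in heart (13 higher, 5 lower), 6 in brain, 3 in kidney and 2 in spleen. The SEs followed the same order at the wide end, with a median of 0.57 in liver, 0.44 in heart, 0.34 in brain, 0.33 in kidney and 0.32 in spleen. A typical 95% interval thus reached 2.16-fold either way in liver and 1.54-fold in spleen. It lay wholly within 2-fold for 280 members in spleen, 258 in kidney, 239 in brain, 149 in heart and 55 in liver. For these members a difference of more than 2-fold lay outside the interval, and for the rest it did not.

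**Figure D2:**
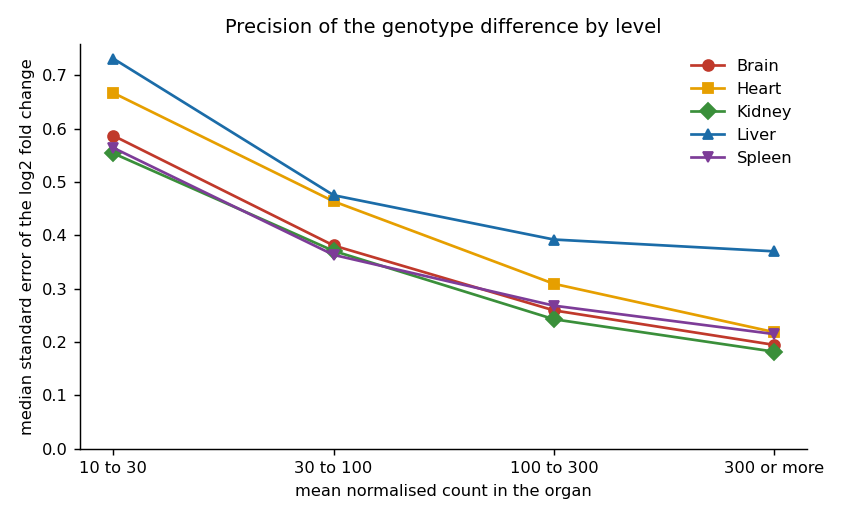
Median standard error of the log2 fold change (vertical axis) of members grouped by their mean normalised count in the organ (horizontal axis), one line per organ. The error falls with level in every organ, and liver has the highest error in each of the 4 level classes.

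Members at higher levels had smaller SEs in each organ, by the median of each level class. In liver the median SE fell from 0.73 for the 199 members at a level of 10 to 30 to 0.37 for the 52 members at 300 or more. In kidney it fell from 0.55 (68 members) to 0.18 (77 members). The members with an unadjusted p under 0.05 were not spread evenly over these classes. In heart 13 of the 62 members at 300 or more were among them, all 13 lower, against 0 of the 70 members at 100 to 300. In liver 12 of the 52 members at 100 to 300 were among them (11 lower, 1 higher), and of the 52 at 300 or more there were 8 (5 higher, 3 lower). In brain 9 of the 99 members at 100 to 300 were among them, all 9 lower. By near-identical levels, the 13 heart members fall into 9 sets, the 12 liver members into 8 and the 9 brain members into 7. No share over all features is given for these level classes, so the uneven spread is not shown to be particular to the members. Of the 43 abundant features, 11 in liver, 7 in heart, 4 in kidney and 0 in brain and spleen had an unadjusted p under 0.05.

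**Figure D3:**
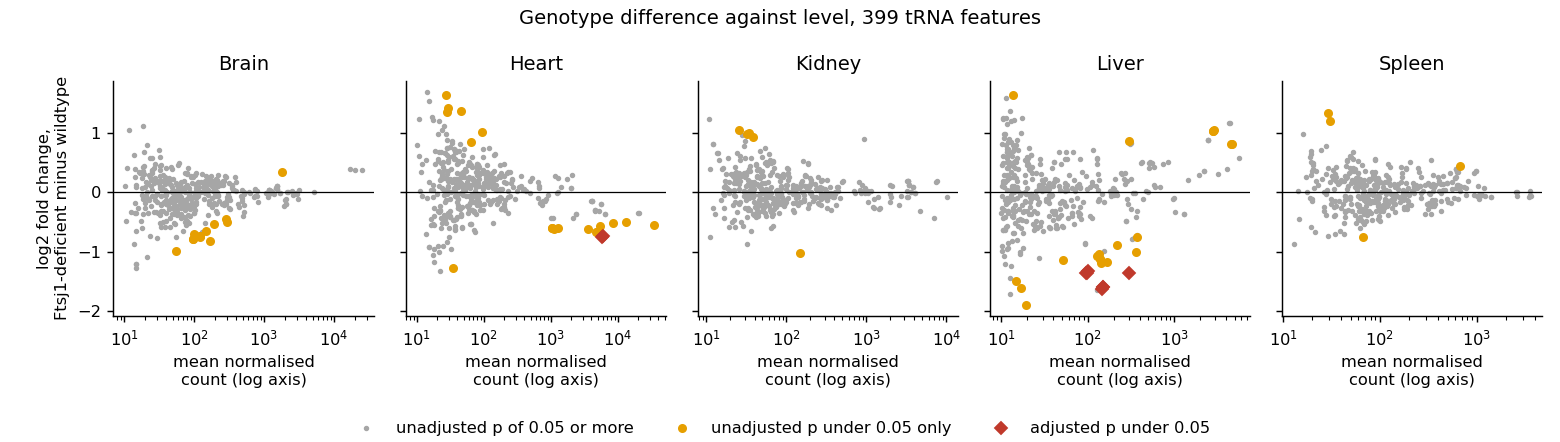
Log2 fold change, Ftsj1-deficient minus wildtype, of each of the 399 members (vertical axis) against its mean normalised count (log horizontal axis), one panel per organ. Red diamonds mark the 2 members called in heart and the 7 called in liver, several of which overlap, and orange points mark the other members with an unadjusted p under 0.05.

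In liver, the 7 called members belong to 3 sets and stand for 13 identifiers. The first set holds 3 called members led by URS00006174C2_10090, a row shared by 6 identifiers. In the authors' deposited table for liver its level was 148 normalised counts and its log2 fold change -1.60 ± 0.48 (SE), with an adjusted p of 0.0172. This places it at 33.0% of the wildtype level, with a 95% interval of -2.55 to -0.65 for the log2 fold change. The other two called members of the set had nearly the same values (-1.60 and -1.62). A further 2 members of that set, at liver levels of 137 and 139, had log2 fold changes of -1.12 ± 0.47 each and were not called, with adjusted p-values of 0.186 and 0.192.

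The second set holds 3 called members led by URS000038D8D3_10090. Its level in liver was 96.8 and its log2 fold change -1.35 ± 0.40, with an adjusted p of 0.0172 in the authors' deposited table. This corresponds to 39.1% of the wildtype level. The remaining call is a single member, a row shared by 2 identifiers at a level of 303 in liver. It had a log2 fold change of -1.36 ± 0.45, or 38.9% of the wildtype level, and an adjusted p of 0.0394 in the authors' deposited table.

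These liver calls depend on which features the p-values are adjusted over. With the authors' choice of features but identical rows taken once, 6 of the 7 members had an adjusted p under 0.05, and the single member at 303 had 0.05004. Adjusted over all features with a p-value, low ones included, 0 members were called, and URS00006174C2_10090 and URS000038D8D3_10090 each had an adjusted p of 0.124.

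In the other organs none of the 7 was called. URS00006174C2_10090 had a log2 fold change of -0.74 ± 0.32 in brain (unadjusted p of 0.022, adjusted 0.997), and of 0.45 ± 0.39 in heart, 0.04 ± 0.33 in spleen and 0.04 ± 0.44 in kidney. URS000038D8D3_10090 had -0.47 ± 0.37 in brain, 0.12 ± 0.44 in heart, 0.54 ± 0.38 in spleen and 0.54 ± 0.70 in kidney. The single member at 303 in liver had -0.14 ± 0.28 in brain, -0.05 ± 0.44 in heart, 0.46 ± 0.39 in spleen and 0.61 ± 0.55 in kidney. Both leading members had values below 0 in brain, where the interval of the first (-1.37 to -0.11) left out 0 and that of the second (-1.20 to 0.26) did not. In heart, kidney and spleen both had values above 0, with intervals that include 0.

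In heart, the 2 called members form 1 set of 5 identifiers. URS00001FE89F_10090, a row shared by 4 identifiers, was among the more abundant members, at 5730 normalised counts in heart. Its log2 fold change was -0.75 ± 0.23, with an adjusted p of 0.0330 in the authors' deposited table, which is 59.4% of the wildtype level. Its neighbour at 5954 had -0.74 ± 0.23 and an adjusted p of 0.0364. With identical rows taken once among the features the authors kept, the adjusted p of URS00001FE89F_10090 was 0.104 and 0 members were called in heart. When the fold changes were centred on the median of features at 10 or more, 6 were. The share of all features called after centring was not computed. In the other organs URS00001FE89F_10090 had log2 fold changes of 0.49 ± 0.37 in liver, -0.28 ± 0.22 in kidney, -0.22 ± 0.29 in spleen and -0.02 ± 0.16 in brain, and was called in none of these.

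**Figure D4:**
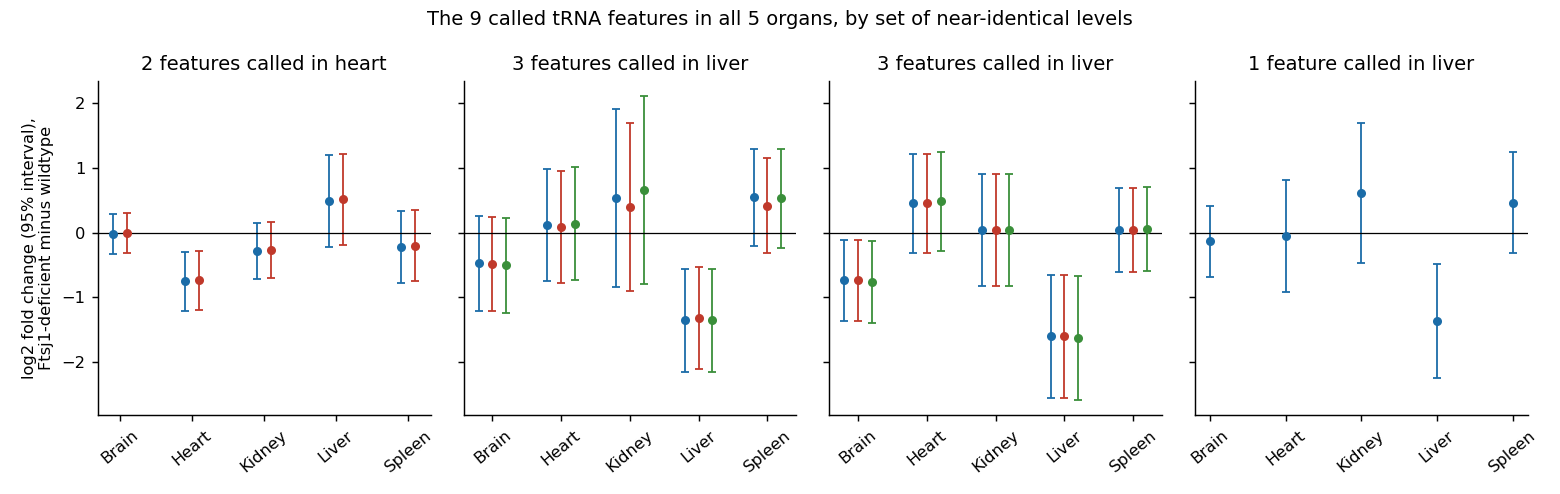
Log2 fold change with its 95% interval (vertical axis, Ftsj1-deficient minus wildtype) of the 9 called members in each organ, one panel per set of near-identical levels and one colour per member. In the heart panel only the heart intervals lie wholly below 0, in the rightmost panel and the panel next to heart only those of liver, and in the remaining panel those of brain and liver.

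Whether the genotype difference itself differed between the organs was tested with Cochran's Q, which compares the 5 log2 fold changes of a feature given their SEs. Adjusted over the 2728 features with values in all organs, 0 members passed, beside a background of 0% of all features. The smallest adjusted p was 0.9999 among the members and 0.741 over all features. Adjusted only over features at 10 or more in every organ, the smallest among the members was 0.284 by the same test, and 0 members passed. At an unadjusted p under 0.05 there were 26 members, or 6.52%, beside 2.27% of all features and 9.28% of those at 10 or more in every organ. That last share is 41 of 442 features. It includes the 399 members, so it is no independent background. The rest of the 41 lay among the 43 abundant features, a larger share of these than the 6.52% of the members. This difference was not tested. URS00006174C2_10090 and URS000038D8D3_10090 were among the 26 members, with unadjusted p-values of 0.0059 and 0.0072. The liver calls are therefore not shown to differ from the other organs after adjustment. The organs came from the same 6 mice, so the 5 values are not independent.

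The sign of each member's log2 fold change was compared across the 5 organs. The log2 fold change was above 0 in all 5 organs for 9 members and below 0 in all 5 for 13, while 107 members were higher in 2 organs and 135 in 3. None of these 22 members had an unadjusted p under 0.05 in any organ, and 3 had a mean log2 fold change over the organs beyond 0.5 in size. The same counts over all features were not computed, so the counts of signs are not shown to be particular to the members.

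Members that were high in 1 organ were set beside the others within that organ. Organ-high means, as above, at least 2 times as high as in every other organ relative to the median member. In heart 10 of the 12 organ-high members were lower in Ftsj1-deficient mice, with a median log2 fold change of -0.59 and a range from -0.75 to 1.01, against a median of 0.08 for the other 387 members. Both called heart members are among the 12, and 9 of the 12 had an unadjusted p under 0.05 (8 lower, 1 higher). Among the other 387 members 11 had one, and the background over all heart features was 2.75%, or 4.54% at a level of 10 or more. The heart-high members include the most abundant of all members there, at 35198 normalised counts, whose log2 fold change was -0.56 ± 0.20 with an adjusted p of 0.0956 in the authors' deposited table.

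In liver 27 of the 32 organ-high members were lower, with a median log2 fold change of -0.58 and a range from -1.65 to 0.88. The other 367 members had a median of 0.05. Of the 32, 9 had an unadjusted p under 0.05, all lower, and 4 of the 7 called members are among the 32. Among the other 367 members 18 had one, and the background over all liver features was 2.5%, or 8.88% at a level of 10 or more. In spleen the 7 organ-high members were all slightly lower, from -0.15 to -0.01, with 0 at an unadjusted p under 0.05. In brain 7 of 12 were higher, with a median of 0.04. In kidney 4 of 5 were lower with a median of -0.06, and the 1 with an unadjusted p under 0.05 had -1.02 ± 0.34 and an adjusted p of 0.997. The organ-high lists were drawn up after the data were seen, rest on the levels that chose the members, and carry no test. By near-identical levels the 12 in heart form 9 sets and the 32 in liver 23. They are also more abundant than the others, with median levels of 5150 against 59.1 in heart and 143 against 26.9 in liver. The part that level plays in these differences was not tested.

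**Figure D5:**
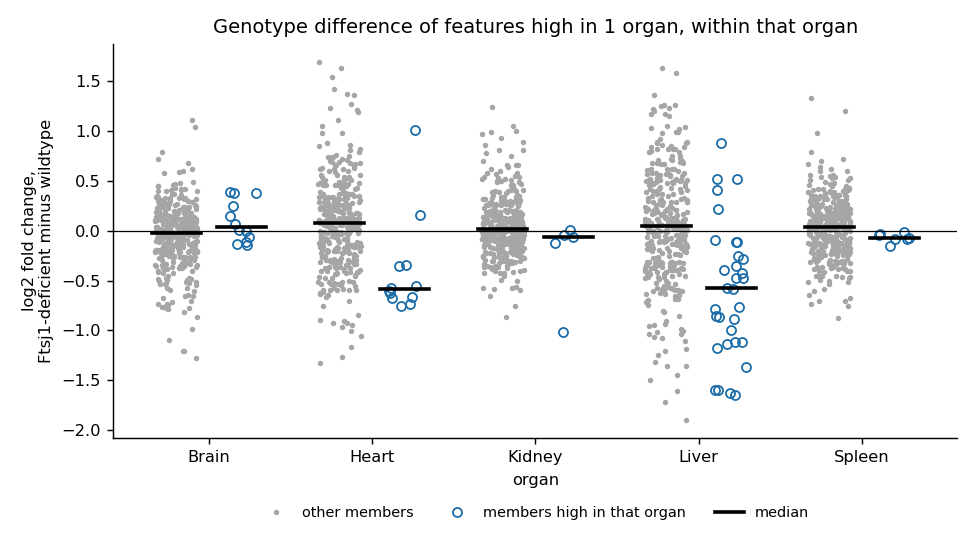
Log2 fold change, Ftsj1-deficient minus wildtype (vertical axis), within each organ for members at least 2 times as high there as in every other organ (open circles) and for the other members (grey points), with the median of each as a bar. The medians of the open circles are -0.59 in heart and -0.58 in liver and lie between -0.08 and 0.04 in the other organs.

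The abundant tRNA features, the nearest in kind, were mostly lower in heart and mostly higher in liver, spleen and kidney. Of these 43 features, 36 were lower in heart with a median log2 fold change of -0.28, and 36 were higher in liver with a median of 0.29. In spleen 35 were higher (median 0.23), in kidney 32 (median 0.10) and in brain 25 (median 0.03). Near-identical levels were not joined among the 43 features, so they may not be independent measurements. The authors' test called 4 of them in heart, all lower, and 8 in liver, all higher. In liver, then, all 8 features called higher were abundant ones, and of the 9 called lower 7 were members. Members at 300 or more in liver also had a median above 0, at 0.34, with 17 of 52 lower. The difference between members and abundant features was not tested, as the tables hold no value per library.

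Messenger RNAs for tRNA synthesis and handling were read from the poly-A libraries of the same organs. The list held 60 genes besides Ftsj1, of which 59 were in the tables. They cover RNA polymerase III and its factors, end processing and splicing, export and cleavage, and the partners of Ftsj1. The authors' test called 0 of 56 genes in brain, heart, kidney and spleen, and 2 of 55 in liver, both higher. The background of called poly-A genes was 0.0607% in brain, 0.0741% in spleen, 0.541% in heart, 0.987% in kidney and 2.29% in liver, where 0.887% were called higher. At an unadjusted p under 0.05 there were 5 of the 55 genes in liver, and of 56 there were 4 in heart, 3 in spleen, 2 in brain and 0 in kidney. The share of all poly-A genes at that threshold was not computed, so these counts cannot be set against a background.

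Both liver calls were Schlafen genes, a family that includes tRNA-cleaving nucleases. Cleavage of tRNA by the 2 called genes was not tested. Slfn1 had a log2 fold change of 0.98 ± 0.29, or 197% of the wildtype level, with an adjusted p of 0.0388 in the authors' deposited table. Slfn5 had 0.42 ± 0.13, or 134% of the wildtype level, with an adjusted p of 0.0470. The other listed Schlafen genes were not called in liver by the authors' test. Slfn8 had 0.60 ± 0.19 (adjusted p of 0.0775), Slfn2 0.50 ± 0.22 (0.309) and Slfn9 0.47 ± 0.25 (0.491). The listed Schlafen genes were also above 0 in heart (0.14 to 0.61) and kidney (0.11 to 0.33), with none called there. Below 0 were Slfn9 in brain (-0.05) and Slfn8 (-0.21) and Slfn9 (-0.08) in spleen. Ang, the gene of angiogenin, and Pop7 were listed at 0 in every organ. The 22 genes of RNA polymerase III and its factors had medians from -0.10 in spleen to 0.05 in heart, with 0 called in any organ. The 2 partners of Ftsj1 were not called in any organ either. Thada, the partner for one methylated position of the loop, had its lowest value in spleen, at -0.33 ± 0.16 with an adjusted p of 0.750. Wdr6, the partner for another position, had its lowest in liver, at -0.23 ± 0.13 with an adjusted p of 0.554.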

How the data were processed

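Per the submitters' processing notes, the tools were featureCounts, Subread 2.0.3 and DESeq2 on the GRCm39 build. Library preparation was stranded, per the labels' protocols. The sources used here do not say whether multi-mapped reads were counted. The deposited signal is the authors' mean of normalised counts over the 6 libraries of an organ, per the file headers. Fold changes and their standard errors were deposited in log2 units, and the deposited score is the authors' Wald statistic, which equalled their quotient. Each p-value, raw and adjusted, is as the authors deposited it, and the adjusted ones equalled a Benjamini-Hochberg adjustment over the features that carry one.

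The design planned a count model if the tables held counts. They hold none, so no model was fitted. Each p-value sets a fold change against its SE, which the authors modelled from 3 and 3 mice. Python 3.11.15 with pandas 2.3.3 and scipy 1.17.1 computed medians, 95% intervals (log2 fold change with 1.96 SE either way, which cover the modelled error only), Cochran's Q with 4 degrees of freedom, and the adjustments tried as alternatives. The script was tested on simulated data. The rule for named members took those called, the smallest p-values per organ and direction, the highest and lowest levels, the largest ratios between organs, the largest Q, the nearest to each threshold and the largest mean fold changes; some of these are left out of the text. The members and lists were chosen with earlier results of these data known. No coordinates of the authors' build were at hand.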

Additional observations from a re-analysis of the deposited data

How the results depend on the processing

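In heart and liver, most alternatives on the adjustment of p-values moved the counts of called members. Centring in heart and a higher level threshold in liver moved them as well. The 2 calls in heart became 0 when p-values were adjusted over all features with a p-value, over those with identical rows once, over features at a level of 10 or more, over the 5 organs together, or over the features the authors kept with identical rows once (an alternative chosen after seeing the data). They became 6 when fold changes were centred on the median of features at 10 or more, with both original calls kept. The 7 calls in liver became 0 when adjusted over all features with a p-value, over those with identical rows once, or over the 5 organs together, and 3 among the 130 members at 50 or more in every organ. They were 6 over features at 10 or more and 8 after centring. Shares over all features were not computed for these alternatives, so the changes in count are not shown to be particular to the members. The counts of 0 in brain, kidney and spleen held under each alternative run, and the count of 0 between organs also without each organ in turn. Median log2 fold changes of the members stayed between -0.04 and 0.09, and centring shifted values by at most 0.06. The medians changed sign in kidney, to -0.0016 among members at 50 or more and -0.012 after centring, and in liver, to -0.017 among members under 500 in at least 1 organ and -0.0081 after centring. No called member's fold change changed sign. No paired analysis was possible because the tables hold no value per library, and for the same reason no replicate could be left out. Liver, with the largest median SE, had the fewest members whose interval lay within 2-fold.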
